A study of Mus musculus with 3 samples.

Results

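Gzma, Gzmb, Gzmc and Gzmk encode granzymes, Prf1 encodes perforin, Nkg7 encodes a granule membrane protein and Fasl encodes Fas ligand. These 7 genes were followed through NK cells, CD8, CD4 and gamma-delta T cells of metastasis-bearing mouse brain. They were chosen by gene name out of 31062 genes in the matrix, and each name matched 1 row. Cytotoxic lymphocytes kill target cells by a granule route and a death receptor route. In the granule route, perforin forms pores through which granzymes, a family of serine proteases, enter the target, while in the death receptor route Fas ligand on the lymphocyte binds Fas on the target. Both routes are used by NK cells and CD8 T cells against carcinoma cells, including those that settle in the brain.

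The animals were C57Bl/6 female mice aged 2 to 3 months, in which E0771 mammary carcinoma cells were injected into the carotid artery to seed the brain. Mice were left untreated or were given antibodies to VISTA and PD-L1 every other day from day 3 after injection. Immune cells were enriched on a Percoll gradient, and 8 samples were stained with 35 antibodies, marked with 1 hashtag each and pooled into 1 capture that gave 3 libraries (cDNA, antibody tags and hashtags) over the same barcodes. The labels tie no hashtag to a treatment. The number of brain hemispheres per biological sample is given as 1 for the cDNA library, 2 for the tag library and 3 for the hashtag library, although the cells are the same, so neither treatment nor pooling could be read for a hashtag sample. Comparisons were therefore made between cell types within hashtag samples, and p-values measure only the spread between these samples, which may be technical. No source used here says that a hashtag sample was 1 animal.

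Of 12908 barcodes, 12334 passed the filters and 9896 were hashtag singlets. Cells were assigned to gates by unique molecular identifiers (UMIs, each counting 1 captured transcript molecule) of marker genes that are not members. The gates held 481 NK cells, 440 CD8 T cells, 149 conventional CD4 T cells, 59 regulatory T cells (Treg, with Foxp3) and 59 gamma-delta T cells. Median depth ran from 4246 UMIs per cell in the CD4 gate to 6991 in the Treg gate. Levels are given as CPM, the summed UMIs of a gene scaled to a total of 1000000 UMIs in a gate and hashtag sample. At least 20 cells were present in 6 hashtag samples for NK (2, 3, 5, 6, 7 and 8), in 4 for CD8 (5, 6, 7 and 8), in 3 for CD4 (5, 7 and 8), in 1 for Treg (5) and in 0 for gamma-delta. Hashtag samples 1 and 4 held 2 and 7 NK cells and entered no comparison.

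The gates carried the markers of their names. The NK gate held all 4 check markers that the gate did not use (Klra8, Klra4, Eomes and Itga2) at a summed 1366 CPM, with Cd3d and Cd3e at 0 by definition. Markers of type 1 innate lymphoid cells summed to 152 CPM there (106 to 255 over samples), and 6 of 6 had a UMI. Markers of macrophages summed to 121 CPM (70.5 to 166; 7 of 7 with a UMI), of endothelial cells to 114 CPM (32.0 to 457; 4 of 4) and of dendritic cells to 61.1 CPM (0 to 282; 4 of 4), of which Ccr7, a gene that lymphocytes carry too, gave 48.6. Dendritic markers summed to 140 CPM in the CD8 gate, of which Ccr7 gave 134. The CD8 gate also held the NK receptor genes at 150 CPM (10.7 to 236 over samples). Endothelial markers summed to 203 CPM in the CD4 gate (62.1 to 369) and macrophage markers to 149 CPM (122 to 186). The type 1 innate lymphoid markers summed to 529 CPM in the CD8 gate and 685 CPM in the CD4 gate. Whether such cells contributed to the NK, CD8 or CD4 values was not tested. The gamma-delta gate held 3 of 3 gamma-chain constant genes at 548 CPM against 12.1 CPM in the NK gate. Trdc, which defines the gamma-delta gate, was at 1518 CPM there, but NK cells carried it too, at 70.4 CPM (51.3 to 82.3 over samples). Of the CD3 genes, Cd3g had UMIs in the NK gate, at 16.7 CPM. The gamma-delta gate also held all 3 NK receptor genes, at 447 CPM. Markers of type 1 innate lymphoid cells summed to 1328 CPM in the gamma-delta gate, with 6 of 6 having a UMI, although T cells can carry Il7r, Cxcr6, Tmem176a and Tmem176b too. Endothelial markers summed to 323 CPM there (4 of 4 with a UMI), and their part in the gamma-delta values was not tested.

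The promoter windows of 5 members are printed because the results turn on a pair of neighbours on chromosome 13, Gzma and Gzmk, on a pair on chromosome 14, Gzmc and Gzmb, and on Prf1. Gzma (ENSMUSG00000023132, chr13:113093824-113100981, minus strand) and Gzmk (ENSMUSG00000042385, chr13:113171630-113180965, minus strand) lie 70648 bases apart with 0 protein-coding genes between them. Gzmc (ENSMUSG00000079186, chr14:56231397-56241647, minus strand) and Gzmb (ENSMUSG00000015437, chr14:56258836-56262334, minus strand) lie 17188 bases apart, again with 0 protein-coding genes between them. Prf1 is ENSMUSG00000037202 (chr10:61297751-61304684, plus strand), Nkg7 is ENSMUSG00000004612 (chr7:43437138-43438246, plus strand) and Fasl is ENSMUSG00000000817 (chr1:161780691-161788495, minus strand). Coordinates and sequences are from RefSeq on GRCm38.p6, and each window runs from 250 bases before to 50 bases after an annotated start, 5′ to 3′ on the strand of the gene. The whole Gzmc window lies inside the span given for Gzmc and not at its 5′ end, so its matches are not those of the outermost start. The start used for Prf1 also lies inside its span, near the 5′ end. Capitals mark matches on either strand to GTGTGA (reverse complement TCACAC), a core of the T-box factor motif, and to TGTGGT (reverse complement ACCACA), a core of the Runx motif. No matches of the 2 motifs overlapped in these windows.
Gzma, chr13:113100932-113101231, minus strand: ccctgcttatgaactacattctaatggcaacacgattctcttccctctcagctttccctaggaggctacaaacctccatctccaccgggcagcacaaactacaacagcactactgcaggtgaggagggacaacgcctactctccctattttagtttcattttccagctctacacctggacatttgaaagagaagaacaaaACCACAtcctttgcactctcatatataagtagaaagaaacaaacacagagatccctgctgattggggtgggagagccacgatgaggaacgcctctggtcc
Gzmk, chr13:113180916-113181215, minus strand: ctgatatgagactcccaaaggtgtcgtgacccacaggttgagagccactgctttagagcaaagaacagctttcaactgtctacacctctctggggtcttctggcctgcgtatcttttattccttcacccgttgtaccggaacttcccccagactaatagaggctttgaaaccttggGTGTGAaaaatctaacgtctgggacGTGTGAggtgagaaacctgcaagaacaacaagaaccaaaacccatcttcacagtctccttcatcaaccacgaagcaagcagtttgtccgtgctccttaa
Gzmb, chr14:56262285-56262584, minus strand: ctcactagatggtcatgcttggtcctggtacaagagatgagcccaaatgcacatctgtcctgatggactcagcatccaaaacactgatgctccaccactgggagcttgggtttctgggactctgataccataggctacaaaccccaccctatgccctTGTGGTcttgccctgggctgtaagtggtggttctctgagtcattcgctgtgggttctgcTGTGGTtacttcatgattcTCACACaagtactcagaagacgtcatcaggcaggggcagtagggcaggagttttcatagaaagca
Gzmc, chr14:56234608-56234907, minus strand: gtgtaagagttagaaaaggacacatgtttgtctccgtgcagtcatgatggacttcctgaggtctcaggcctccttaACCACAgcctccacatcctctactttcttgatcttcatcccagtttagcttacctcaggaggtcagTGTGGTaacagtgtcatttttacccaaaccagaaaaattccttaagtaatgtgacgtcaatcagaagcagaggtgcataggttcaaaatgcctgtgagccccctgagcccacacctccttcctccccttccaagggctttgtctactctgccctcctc
Prf1, chr10:61297586-61297885, plus strand: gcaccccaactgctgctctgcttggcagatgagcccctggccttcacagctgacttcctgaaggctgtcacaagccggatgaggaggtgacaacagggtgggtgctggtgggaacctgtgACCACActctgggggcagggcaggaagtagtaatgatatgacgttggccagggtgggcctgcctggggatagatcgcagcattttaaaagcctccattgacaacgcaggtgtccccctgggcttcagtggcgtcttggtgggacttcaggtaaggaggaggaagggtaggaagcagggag
GTGTGA had 2 matches in the Gzmk window, 1 in the Gzmb window, 1 in the Nkg7 window and 0 in those of Gzma, Gzmc, Prf1 and Fasl. TGTGGT had 2 matches each in the Gzmb and Gzmc windows, 1 each in those of Gzma, Prf1 and Nkg7, and 0 in those of Gzmk and Fasl. Of 32851 promoter windows of the same length, 14.5% held GTGTGA and 16.8% held TGTGGT. A match describes letters only and shows no binding.

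NK cells were set apart by Gzma, Gzmc and Prf1, CD8 T cells by Gzmk, while Nkg7 and Fasl did not pass the test between them. NK and CD8 cells were compared in the 4 hashtag samples with at least 20 cells of both. Across all genes, 636 of 6789 tested (9.37%, with 5.01% higher and 4.36% lower in NK cells) passed edgeR's quasi-likelihood test at an adjusted p of 0.05, and 5 of 7 members did, with 4 higher in NK cells and 1 lower.

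Gzma encodes granzyme A, a protease that cuts after basic residues. In NK cells it stood at 10297 CPM in hashtag sample 2, 15132 in sample 3, 9738 in sample 5, 5610 in sample 6, 7673 in sample 7 and 10745 in sample 8. In CD8 cells it stood at 438 CPM in sample 5, 405 in sample 6, 697 in sample 7 and 816 in sample 8. The lowest NK sample lay above the highest CD8 sample, so the gates did not overlap. Over the 4 shared samples the NK mean was 8442 ± 2280 CPM against 589 ± 200 CPM in CD8 cells (SD, n = 4 each), a log2 fold change of 3.90 (SE 0.40, edgeR adjusted p = 9.02e-06).

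Gzmb encodes granzyme B, which cuts after aspartate and can activate caspases in the target. In NK cells Gzmb was at 2793 CPM in sample 2, 6599 in sample 3, 2540 in sample 5, 1430 in sample 6, 1970 in sample 7 and 2758 in sample 8. In CD8 cells Gzmb was at 835, 1046, 753 and 1943 CPM in samples 5, 6, 7 and 8. The NK value was the higher in each of the 4 shared samples, but the ranges of the gates overlapped, since CD8 cells of sample 8 lay above NK cells of sample 6. The log2 fold change for Gzmb was 0.98 (SE 0.21, edgeR adjusted p = 0.00669). That call was lost without hashtag sample 5 (0.78, adjusted p = 0.0816) and with barcodes of high UMIs or myeloid or keratin transcripts kept (1.04, adjusted p = 0.102).

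Gzmc encodes granzyme C, a member of the Gzmb cluster with close relatives in the same locus, so reads may be shared among copies. In NK cells Gzmc was at 316 CPM in sample 2, 32.0 in sample 3, 212 in sample 5, 804 in sample 6, 65.7 in sample 7 and 431 in sample 8. In CD8 cells it never passed 5.18 CPM, and the gates did not overlap. The log2 fold change for Gzmc was 6.90 (SE 0.33, edgeR adjusted p = 2.11e-09). It rested on 9 Gzmc UMIs in CD8 cells of the 4 shared samples, so its size is less certain than the SE implies. Few cells carried this level: only 14.3% of NK cells had a Gzmc UMI, 56.9% of the Gzmc UMIs lay in 5 cells and 21.9% in 1 cell of sample 8 with 168 UMIs. Without the top cell of each sample, the NK values were 149, 21.3, 127, 323, 51.0 and 163 CPM in samples 2, 3, 5, 6, 7 and 8, still above each CD8 value.

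Gzmk encodes granzyme K, a protease related to granzyme A. In CD8 cells it was at 163 CPM in sample 5, 422 in sample 6, 249 in sample 7 and 104 in sample 8. In NK cells it lay between 0 CPM (sample 2) and 9.65 CPM (sample 7), so the gates did not overlap and the direction was the opposite of that of its neighbour Gzma. The log2 fold change of NK over CD8 cells was -4.52 for Gzmk (SE 0.33, edgeR adjusted p = 1.85e-07). CD8 cells held 70.3% of all Gzmk UMIs of singlets, and NK cells 2.24%.

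Prf1 encodes perforin, the pore former. NK cells had 758 CPM of Prf1 in sample 2, 1108 in sample 3, 868 in sample 5, 521 in sample 6, 790 in sample 7 and 1044 in sample 8. CD8 cells had 143 CPM in sample 5, 182 in sample 6, 95.1 in sample 7 and 448 in sample 8. The gates did not overlap, and sample 8 was the highest in CD8 cells for both Prf1 and Gzmb. The log2 fold change for Prf1 was 2.05 (SE 0.25, edgeR adjusted p = 4.15e-05).

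Nkg7 encodes a granule membrane protein that takes part in granule release. It was at 2710 CPM in NK cells of sample 2, 3158 in sample 3, 2732 in sample 5, 1813 in sample 6, 2667 in sample 7 and 2858 in sample 8. In CD8 cells it was at 2138, 3169, 2495 and 3388 CPM in samples 5, 6, 7 and 8. NK cells were higher in 2 of 4 shared samples. The log2 fold change for Nkg7 was -0.14 (SE 0.15, edgeR adjusted p = 0.687).

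Fasl encodes Fas ligand, the trigger of the death receptor route. NK cells had 194 CPM in sample 2, 160 in sample 3, 183 in sample 5, 139 in sample 6, 143 in sample 7 and 179 in sample 8. CD8 cells had 100.4, 176, 137 and 109 CPM in samples 5, 6, 7 and 8. The ranges overlapped, and the log2 fold change for Fasl was 0.40 (SE 0.20, edgeR adjusted p = 0.288). An adjusted p above the threshold does not show that the levels of Nkg7 or Fasl were alike.

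**Figure D1:**
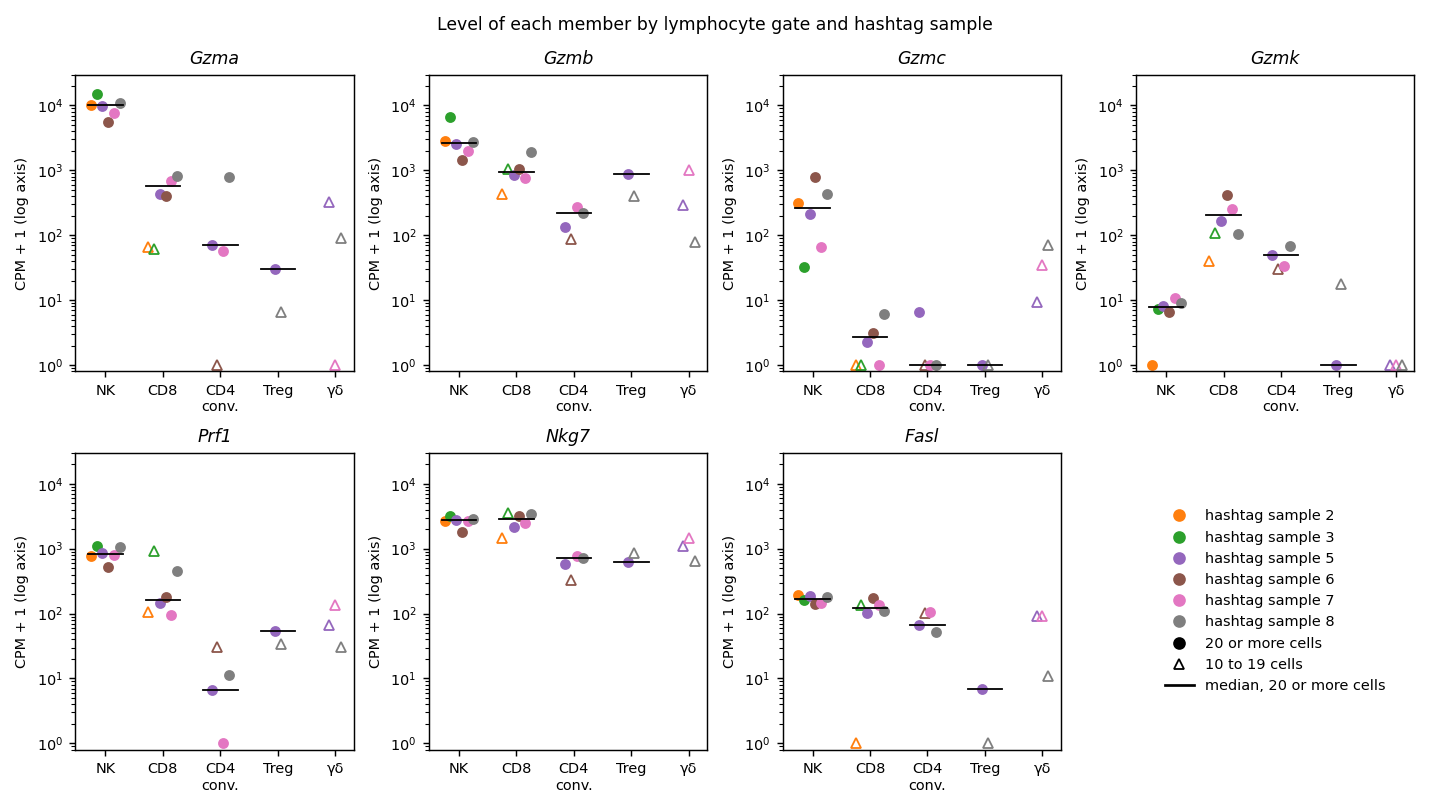
Level of each gene as CPM + 1 on a log axis, by gate, with 1 point per hashtag sample; filled circles hold at least 20 cells, open triangles 10 to 19, and lines give the median of the filled circles. Among filled circles, Gzma, Gzmc and Prf1 are higher in NK than in CD8 cells with no overlap, Gzmk is lower, and Nkg7 overlaps between them.

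The sums of CD8 cells with fewer than 20 cells were not part of the test. Sample 3, with 10 CD8 cells, had 927 CPM of Prf1, above the 4 larger sums and within the NK range, whereas sample 2, with 12 CD8 cells, had 105 CPM. With the minimum at 10 cells, which brought both into the fit, the log2 fold change of Prf1 was 1.79 (edgeR adjusted p = 0.000173).

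Conventional CD4 T cells had almost no Prf1 and less Gzmb, Gzmk and Nkg7 than CD8 T cells. They were compared with CD8 cells in samples 5, 7 and 8. Here 96 of 6789 genes (1.41%, with 0.663% higher and 0.751% lower in CD8 cells) passed and 4 of 7 members did, each higher in CD8 cells. Prf1 was at 5.67, 0 and 10.3 CPM in CD4 cells of samples 5, 7 and 8, all below the CD8 values, with a log2 fold change of 5.23 (SE 0.55, edgeR adjusted p = 8.74e-05). Gzmb in CD4 cells was at 133, 269 and 222 CPM, and the log2 fold change of CD8 over CD4 cells was 2.64 (SE 0.28, edgeR adjusted p = 8.74e-05). Nkg7 was at 584, 774 and 719 CPM in CD4 cells of these samples, with a log2 fold change of 2.13 (SE 0.19, edgeR adjusted p = 1.58e-05). For these 3 genes the gates did not overlap.

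Gzmk was at 48.2, 32.6 and 67.2 CPM in CD4 cells of samples 5, 7 and 8, below the CD8 cells of all 4 samples. Its log2 fold change was 1.74 (SE 0.33, edgeR adjusted p = 0.0123). The Gzmk call was lost with DESeq2 (1.83, adjusted p = 0.0916), with the excluded barcodes kept (1.52, adjusted p = 0.0790), without sample 5 (adjusted p = 0.184) and without sample 7 (adjusted p = 0.188).

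Gzma in CD4 cells was at 70.9, 57.0 and 796 CPM in samples 5, 7 and 8. Sample 8 stood apart and overlapped with CD8 cells, and 97.4% of its Gzma UMIs lay in 1 cell with 150 UMIs, without which the level was 21.5 CPM. The log2 fold change of CD8 over CD4 cells for Gzma was 1.55 (SE 0.48, edgeR adjusted p = 0.165). It was 3.20 (adjusted p = 1.67e-05) without sample 8, and it passed with no filter on low counts (1.64, adjusted p = 4.55e-23). With the same sums and a similar fold change, the latter p rests on a smaller estimated spread in the fit over 15633 genes. It does not mean that the samples were closer to each other, and is not read as stronger evidence. Fasl was at 65.2, 106 and 51.7 CPM in CD4 cells, ranges that overlapped with CD8 cells and a log2 fold change of 0.86 (SE 0.29, edgeR adjusted p = 0.218), and it passed with gates by antibody tags (1.00, adjusted p = 0.0180). Gzmc held 2 UMIs in the CD4 cells of these samples and 8 in the CD8 cells, too few to give a direction.

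NK cells against conventional CD4 cells, in samples 5, 7 and 8, gave 638 of 6789 genes called (9.40%, with 4.23% higher and 5.17% lower in NK cells), and 7 of 7 members. Gzma (log2 fold change 5.45, SE 0.52), Gzmb (3.62, SE 0.28), Gzmc (6.35, SE 0.51), Prf1 (7.28, SE 0.50), Nkg7 (1.98, SE 0.19) and Fasl (1.26, SE 0.28) were higher in NK cells. Gzmk was lower in NK cells, at -2.77 (SE 0.49, edgeR adjusted p = 0.00127). The Fasl call was lost with DESeq2 (1.21, adjusted p = 0.0594), without sample 5 (1.06, adjusted p = 0.159) and without sample 8 (1.07, adjusted p = 0.0881). The size of the Gzma change ran from 4.73 without sample 5 to 7.12 without sample 8, where 1 CD4 cell held most Gzma UMIs. That of Gzmc ran from 5.40 without sample 8 to 10.00 without sample 5, which held both Gzmc UMIs of the CD4 cells compared. The 3 comparisons above share their sums, so their calls are not independent of each other.

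**Figure D2:**
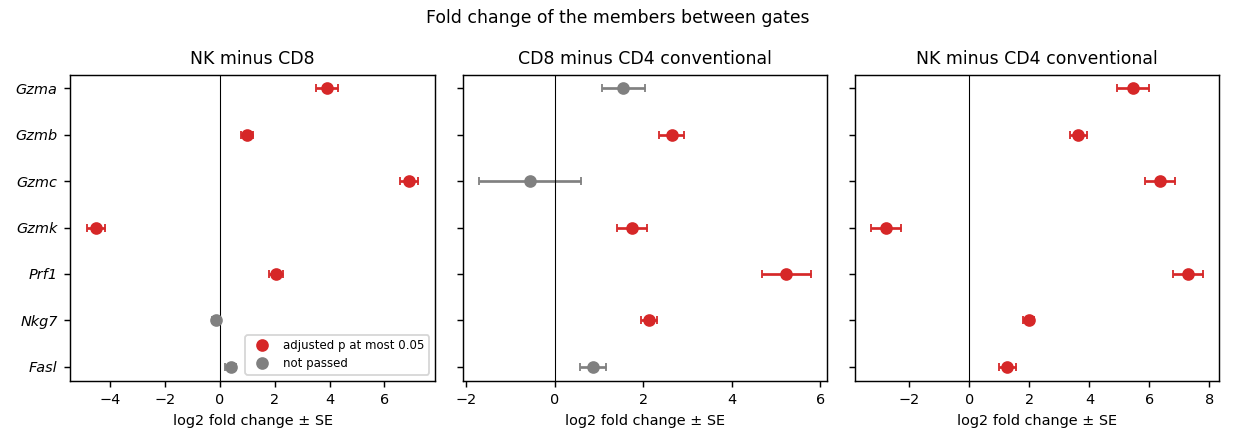
Log2 fold change for each gene in 3 comparisons of gates, with the hashtag sample as a block. Bars are the standard error derived from the F statistic of the test. Red points passed an adjusted p of 0.05 and grey points did not. Gzmk lies to the left of 0 in both NK comparisons, while Nkg7 is near 0 between NK and CD8 cells.

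Regulatory T cells, which restrain other T cells, carried Gzmb with little Prf1. Gzmb was at 885 CPM in sample 5, in 15 of 21 cells, and at 403 CPM in sample 8, in 7 of 16 cells. Gzma was at 29.5 and 5.52 CPM in these samples, and Prf1 at 53.1 and 33.1 CPM. The levels of Gzmb, Prf1 and Nkg7 lay above the conventional CD4 level in both samples, and those of the other members in neither. For Prf1 this rested on 15 UMIs in Treg cells and 4 in CD4 cells. With sample 5 as the only Treg sum of at least 20 cells, the log2 fold change of Gzmb over CD4 cells was 2.32 (SE 0.39, edgeR adjusted p = 0.0352), and 0.147% of all genes passed (0.103% higher and 0.0442% lower in Treg cells). This rests on 1 Treg sum, which the fit takes to vary like the other gates. With both sums at a minimum of 10 cells the call was lost (1.88, adjusted p = 0.189; 0.953% of all genes passed), and no other member passed in either fit. The Gzmb call was also lost with gates by antibody tags (1.14, adjusted p = 0.0874), where Fasl passed as lower in Treg cells (-2.83, adjusted p = 0.0139). It was lost too with the excluded barcodes kept (adjusted p = 0.0605), with no replicate block (0.219) and without sample 8 (0.0648). Treg cells carried macrophage markers at a summed 619 CPM in sample 5, with 7 of 7 over all Treg cells having a UMI, and the part of such RNA in the Gzmb level was not tested. Gzmb in the macrophage gate itself was at 0 to 31.6 CPM over samples.

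Gamma-delta T cells reached 20 cells in no hashtag sample, so they were compared at a minimum of 10 cells, in samples 5, 7 and 8. Gzmk had 0 UMIs in 59 gamma-delta cells. Against CD8 cells of samples 5, 7 and 8, whose pooled level was 143 CPM (355 UMIs), this was at least 14.8-fold lower by a floor of 3 counts over the gamma-delta cells of the 3 samples (edgeR adjusted p = 0.000323 for Gzmk). Against conventional CD4 cells, at a pooled 50.8 CPM (34 UMIs), it was at least 5.26-fold lower (edgeR adjusted p = 0.0428 for Gzmk). That call was lost without sample 5 (adjusted p = 0.254), 7 (0.182) or 8 (0.0858), and without sample 3 its adjusted p lay just above 0.05.

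Gzma in gamma-delta cells was at 331, 0 and 88.7 CPM in samples 5, 7 and 8, Gzmb at 289, 1020 and 78.9 CPM, and Prf1 at 66.1, 136 and 29.6 CPM. Nkg7 was at 1116, 1462 and 651 CPM and Fasl at 90.9, 90.7 and 9.86 CPM. The order of the samples differed between Gzma and Gzmb, with sample 7 highest for Gzmb and at 0 for Gzma. Gzmc, at 8.26, 34.0 and 69.0 CPM, rested on 11 UMIs in 3 cells of these samples.

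Against CD8 cells, 85 of 4197 genes (2.03%, with 1.29% higher and 0.739% lower in gamma-delta cells) and 3 of 7 members passed: Gzmc higher (4.15, SE 0.74, edgeR adjusted p = 0.00273), and Nkg7 (-1.36, SE 0.27, edgeR adjusted p = 0.00617) and Gzmk lower. Without sample 8 the calls of Gzmc (adjusted p = 0.0861) and Nkg7 (adjusted p = 0.120) were lost, and without sample 7 Gzmb passed as lower (-2.61, adjusted p = 0.0327). Against NK cells, 2.64% of genes (1.5% higher and 1.14% lower) and 5 of 7 members passed, all 5 lower in gamma-delta cells, with ranges that overlapped for Gzmc and not for the other 4. The log2 fold changes were -6.35 for Gzma (SE 0.89), -2.69 for Gzmb (SE 0.57), -2.76 for Gzmc (SE 0.44), -3.39 for Prf1 (SE 0.53) and -1.36 for Nkg7 (SE 0.27). Gzma went to -8.55 without sample 5, and Gzmb to -4.08 without sample 7 and -2.09 without sample 8. The Gzmb call was lost without sample 5 (adjusted p = 0.132) and that of Nkg7 without sample 8 (adjusted p = 0.0941). Against conventional CD4 cells, 3.53% of genes (2.19% higher and 1.33% lower) and 2 members passed, with Gzmc higher (3.94, SE 0.91, edgeR adjusted p = 0.0199) and Gzmk lower. The Gzmc call was lost without sample 7 (adjusted p = 0.125) and without sample 8 (adjusted p = 0.229), while without sample 3 Prf1 passed as higher (3.24, adjusted p = 0.0432). With cells that had an NK receptor UMI left out, 1 gamma-delta sum of 12 cells (sample 8) remained, which the fit takes to vary like the other gates. Against CD8 cells, the calls of Gzmc, with 0 UMIs left, and Gzmk (adjusted p = 0.167) were then lost, Nkg7 kept its call (-3.22, adjusted p = 0.000506) and Gzmb passed as lower (-4.90, adjusted p = 0.0259).

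The cells of the gamma-delta gate were divided by NK receptor transcripts, a division made after the values were seen and given as a description. Of its 59 cells, 31 had a UMI of Ncr1, Klrb1c or Klre1 and 28 had none. Cells with such a UMI had 986 CPM of Gzma, 965 of Gzmb, 99.8 of Gzmc, 179 of Prf1, 1531 of Nkg7 and 112 of Fasl. Cells without one had 25.7 CPM of Gzma, 51.4 of Gzmb, 0 of Gzmc, 25.7 of Prf1, 534 of Nkg7 and 6.43 of Fasl. Each of these 6 genes was thus higher in the cells with NK receptor transcripts, while Gzmk was at 0 UMIs in both. The values without a receptor UMI rested on 4 UMIs of Gzma, 8 of Gzmb, 4 of Prf1 and 1 of Fasl. There 3 counts correspond to 19.3 CPM, above the Fasl value. Gzmc in cells with a receptor UMI was 24 UMIs in 5 cells. Of the cells with a receptor UMI, 14 of 31 had a Gzma UMI and 30 of 31 an Nkg7 UMI, against 1 of 28 and 8 of 28 of the others.

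Il17a, the cytokine of a separate gamma-delta subset, showed the reverse pattern. It was at 1260 CPM in cells without a receptor UMI, in 10 of 28 cells, and at 0 UMIs in 31 cells with one. The cells with a receptor UMI carried less T cell receptor transcript, with Tcrg-C1 at 87.4 against 681 CPM and Cd3e at 208 against 534 CPM. Their surface tags lay between those of the other gamma-delta cells and NK cells for CD3, at a median of 22 tags per cell against 58.5 in cells without a receptor UMI and 6 in NK cells. For NK1.1 the medians were 58, 14.5 and 69 tags per cell. The part of NK cells or of barcodes holding an NK cell with a T cell in this gate was not tested. Hashtag sample 5 gave 10 of the 31 cells with a receptor UMI and sample 8 gave 12 of the 28 without.

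**Figure D3:**
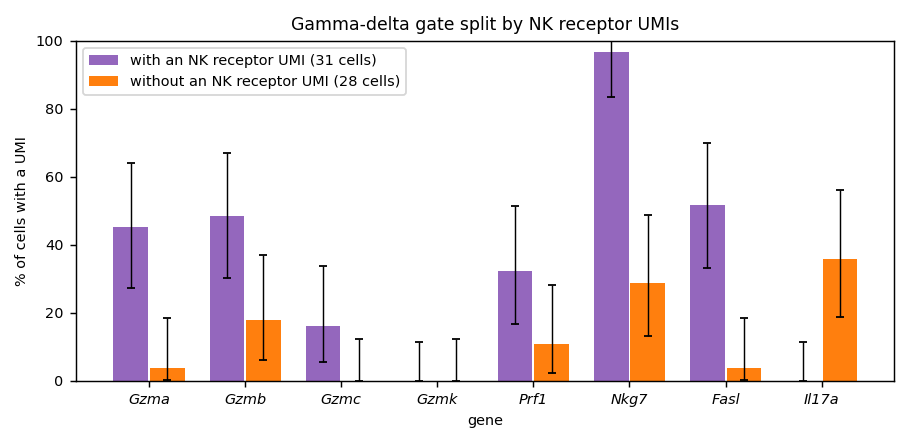
Percent of gamma-delta gate cells with a UMI of each gene, in bars from 0, for 31 cells with and 28 cells without an NK receptor UMI; error bars are exact 95% binomial intervals and cover counting error only. Nkg7, Fasl, Gzma and Gzmb are seen in more cells on the side with NK receptor transcripts, and Il17a on the other side only.

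Shares of cells with a UMI were compared after each cell was thinned to 2000 UMIs, since depth differed between gates, which left out 6 NK, 4 CD8 and 3 CD4 cells. A Gzma UMI was found in a median of 91.7% of NK cells (84 to 97.6% over 6 samples) and 19.6% of CD8 cells (15.1 to 29.2% over 4). Unthinned, these were 92.2 and 32.2%. A Prf1 UMI was found in 69.7% of NK cells (64 to 80%) and 24.4% of CD8 cells (20.5 to 38.7%), and a Gzmb UMI in 72.3% (65.2 to 82.8%) and 53.3% (38.5 to 67.4%). Unthinned medians were 85.7 and 45.7% for Prf1 and 85.5 and 69.1% for Gzmb.

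Gzmk was the one member seen in more CD8 than NK cells in all 4 shared samples, at 38.5% of CD8 cells (15.3 to 56.2%) and 1.53% of NK cells (0 to 4%). Unthinned, these were 52.0 and 3.63%. Nkg7 was found in 95.8% of NK and 93.3% of CD8 cells, Fasl in 32.4 and 22.6%, and Gzmc in 8.37 and 0%. With 4 shared samples the exact two-sided sign-flip permutation test cannot go below p = 0.125. That value was reached for Gzma, Gzmb, Gzmc, Gzmk and Prf1, each the same way in 4 of 4 samples (adjusted over 7 members p = 0.175, exact permutation test), but not for Nkg7 (p = 1) or Fasl (p = 0.25).

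Gates that should lack these genes gave the background. The part of free RNA in it was not tested. Over microglia, macrophage, endothelial and carcinoma gates, the pooled thinned share was highest for Gzma in macrophages, at 2.12%, and 79.4% of the macrophage Gzma UMIs lay in 5 cells. For the other members the highest of these gates, macrophages in each case, was at 1.21% for Nkg7, 0.909% for Gzmb, 0.455% for Prf1 and Fasl and 0.152% for Gzmc, and no thinned cell of the 4 gates had Gzmk. Gzmc in CD8 cells (0.229%, 1 of 436 cells) and Prf1 in CD4 cells (0.685%, 1 of 146) each rested on 1 cell after thinning. That is too few to be told from background. Unthinned, Prf1 was in 4.70% of CD4 cells and Gzmc in 1.14% of CD8 cells. The highest unthinned shares of the 4 gates were 3.75% for Prf1 (carcinoma) and 0.437% for Gzmc (macrophages). Carcinoma cells had a median of 85162 UMIs against 4246 in CD4 cells, so their Prf1 shares are not at like depth. In the less deep gates, unthinned Prf1 was in 1.60% of macrophages, 0.182% of microglia and 0% of endothelial cells. Whether these 2 lymphocyte gates hold a low level was not tested. Gzmk in NK cells (1.26%, 6 of 475) was low but above its background. In the CD4 gate the pooled thinned share was 13.0% for Gzmb, 15.1% for Fasl and 48.6% for Nkg7, all above background. In carcinoma cells, with a median of 85162 UMIs, the unthinned share for Gzma was 9.19% against 0.439% once thinned. The ratio of Gzma to Gzmb UMIs was 3.63 in NK and 0.463 in CD8 cells, and 4.33 in microglia, 4.15 in macrophages, 3.70 in endothelial and 1.84 in carcinoma cells. The microglia ratio rested on 13 and 3 UMIs and the endothelial ratio on 37 and 10, too few to give a firm size.

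**Figure D4:**
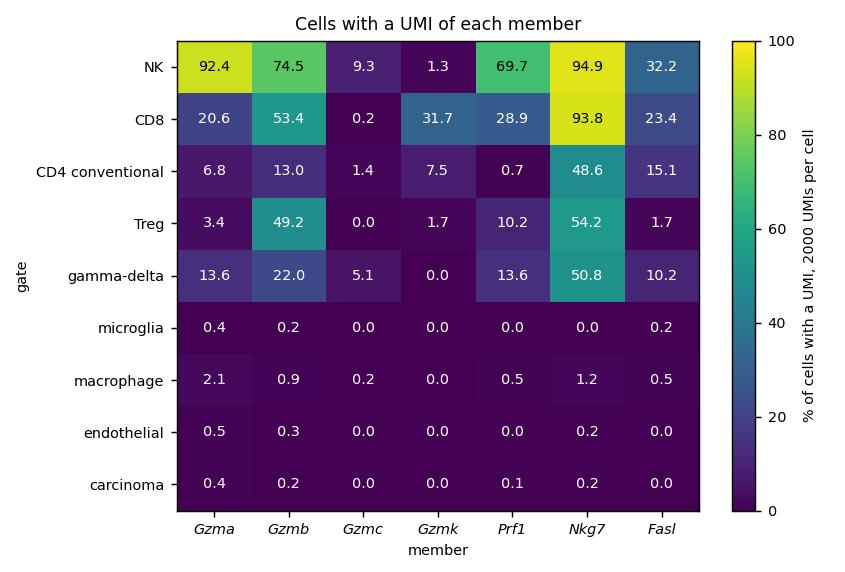
Percent of cells with a UMI of each gene after thinning to 2000 UMIs per cell, pooled over hashtag samples, for 5 lymphocyte gates (rows at the top) and 4 gates that should lack the genes. The lymphocyte rows reach 94.9% (Nkg7 in NK cells) and the lower rows stay at or under 2.12%.

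Within NK cells, granule genes were often found in the same cells. Among thinned cells, 56.4% had UMIs of Gzma, Gzmb and Prf1 together (268 of 475, exact 95% interval 51.8 to 60.9%), against 6.19% of CD8 cells (27 of 436, 4.12 to 8.88%). The pooled shares of Gzma, Gzmb and Prf1 alone were 92.4, 74.5 and 69.7% in NK cells. In CD8 cells they were 20.6, 53.4 and 28.9%. The joint shares follow these single shares too, so their contrast does not show that co-detection was stronger in NK cells. Cells with no UMI of the 4 granzymes or Prf1 made up 3.16% of NK cells and 26.6% of CD8 cells. Of CD8 cells, 32.8% had Gzmb without Prf1 and 20.6% had both, while of NK cells 16.6% had Gzmb without Prf1 and 57.9% had both. Of Treg cells, 42.4% (25 of 59, exact 95% interval 29.6 to 55.9%) had Gzmb without Prf1, and 6.78% had both. Without thinning the shares with all 3 genes were 72.3% of NK and 19.5% of CD8 cells. The order in CD8 cells then turned, with 110 of 440 cells having Gzmb without Prf1 and 183 (41.6%) having both, while in Treg cells these were 42.4 and 18.6%. Intervals pool cells over hashtag samples and cover counting error only.

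Co-detection was measured within each hashtag sample, as the share of cells with gene B among cells with gene A minus that among cells without gene A. A difference was taken only where at least 5 cells lay on each side. In NK cells 11 of 30 ordered pairs were higher in every sample that could be measured, and in CD8 cells 20 of 36, counts that hold both orders of some pairs. If either direction is equally likely, a pair has 1 direction in all of 3 samples with probability 0.25, and in all of 6 with 0.0312. NK pairs with Gzma as gene A had 3 samples each, among them Gzmk at 1.33% against 0%. Pairs of other genes were not measured, so the counts are a description. No pair passed an adjusted p of 0.05 by the exact sign-flip permutation test, and 5 ordered NK pairs, with both orders of Gzmb and Prf1 among them, reached an unadjusted p of 0.0312, the smallest that 6 samples allow (adjusted p = 0.188). The smallest adjusted p in CD8 cells was 0.265.

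In NK cells with Gzmb, 77.3% had Prf1, against 51.9% of those without (higher in 6 of 6 samples). The largest mean difference was between Gzma and Prf1. Among NK cells with Gzma 73.7% had Prf1, against 21.0% of those without, higher in 3 of 3 samples, with only 14, 8 and 6 cells lacking Gzma in samples 5, 7 and 8. In the other order, 97.4% of NK cells with Prf1 and 79.6% of those without had Gzma, higher in 5 of 6 samples and lower in sample 2. Gzmc ran the other way with Gzma: 6.39% of NK cells with Gzma and 26.6% of those without had Gzmc, lower in the same 3 of 3 samples. In the other order, 81.0% of NK cells with Gzmc and 92.8% of those without had Gzma, lower in 4 of 5 samples and higher in sample 2. Gzmc and Prf1 were found together more often, with Prf1 in 80% of NK cells with Gzmc and 67.0% of those without (5 of 5 samples).

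In CD8 cells Gzmk was seen more often beside Gzmb and Gzma, and not beside Prf1, though none of these pairs passed the test. Of CD8 cells with Gzmk, 64.1% had Gzmb against 44.2% of those without (4 of 4 samples), and 27.1% had Gzma against 16.2% (4 of 4). Prf1 was in 21.9% of CD8 cells with Gzmk and 28.9% of those without, lower in 3 of 4 samples. Gzmb went with both, with Prf1 in 42.9% of CD8 cells with Gzmb and 14.0% of those without (5 of 5 samples) and Gzma in 27.2 and 7.74% (5 of 5). These means weigh sample 3, with 5 cells on each side, like the larger samples. There Prf1 was in 80% of cells with Gzmb and 0% of those without. In samples 5, 6, 7 and 8 the Prf1 difference was 6.39, 21.2, 7.76 and 29.3 percentage points. Gzma and Prf1 gave no common direction in CD8 cells, at 25.1 and 26.8% and higher in 2 of 4 samples, whereas in NK cells that pair had the largest difference; the contrast between the gates was not tested.

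**Figure D5:**
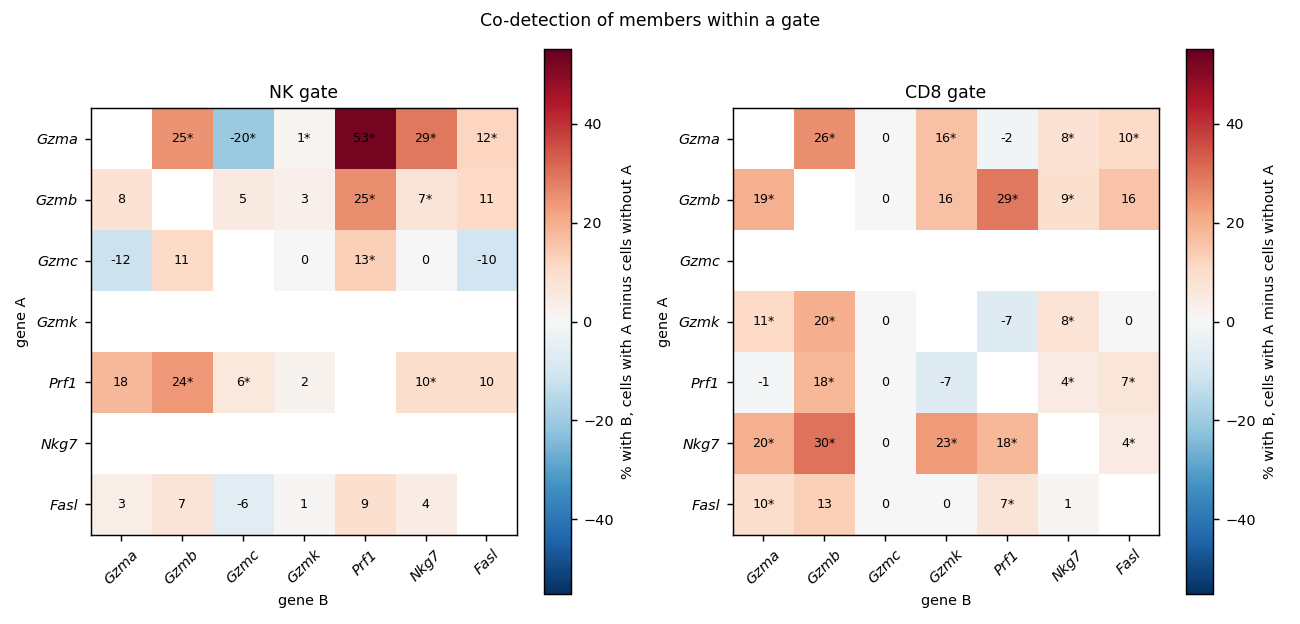
Mean over hashtag samples of the percent of cells with gene B among cells with gene A (rows) minus that among cells without gene A, in NK (left) and CD8 cells (right), after thinning; a star marks a pair with 1 direction in every sample, and blank squares had too few cells. Gzma and Prf1 differ by 53 percentage points in NK cells and by -2 in CD8 cells.

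Surface tags of the same cells were compared between cells with and without a Gzmb UMI. In CD8 cells with Gzmb, the share of tags was higher for PD-1 (log2 ratio 0.45 ± 0.22, SD, n = 5 samples), CD38 (0.49 ± 0.30) and CD49d (0.14 ± 0.09), each in 5 of 5 samples. Of these samples, sample 3 held only 5 CD8 cells with Gzmb and 5 without. PD-1 is an inhibitory receptor that rises on activated T cells. Tags of I-A/I-E (-0.45 ± 0.16), CD44 (-0.22 ± 0.17) and CD4 (-1.04 ± 0.83) were lower in 5 of 5 samples. The smallest p that 5 samples allow is 0.0625, and no tag passed after adjustment (p = 0.333, exact permutation test).

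In NK cells with Gzmb, tags of NK1.1 (0.13 ± 0.08, n = 6 samples) and CD4 (0.32 ± 0.34) were higher in 6 of 6 samples. Tags of c-kit (-0.65 ± 0.32), B220 (-0.75 ± 0.68) and CD44 (-0.17 ± 0.12) were lower in 6 of 6 (p = 0.0312 each, adjusted p = 0.200, exact permutation test). The mean number of I-A/I-E tags, which mark antigen-presenting cells, had a median over samples of 24.3 per NK cell with Gzmb and 88.3 per cell without, and their share was lower in 5 of 6 samples. Dendritic cell markers in the NK gate are given above, and their part in these tags was not tested. Without scaling to the tags of a cell, 3 tags in NK and 2 in CD8 cells had 1 direction in all samples, against 5 and 6 with it.

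Other genes of the pathway were counted over lists of known roles. Granzyme inhibitors, serpins that protect the killer cell from its own proteases, were the list with the most members higher in NK than in CD8 cells relative to its size, at 3 of 4 (median log2 fold change 1.58 against -0.01 over all genes tested). Serpinb9 stood at a mean of 819 CPM in NK and 233 CPM in CD8 cells (log2 fold change 1.90, SE 0.22, edgeR adjusted p = 2.46e-05), Serpinb9b at 155 and 3.35 CPM (5.08, SE 0.43, 1.03e-06) and Serpinb6b at 651 and 281 CPM (1.27, SE 0.21, 0.000693). Serpinb6a did not pass (-0.79, adjusted p = 0.0913). Between CD8 and CD4 cells 0 of 4 passed by edgeR, and 1 of 4 (Serpinb9) had an unadjusted p under 0.05.

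Of the proteins that pack and activate granzymes (Srgn, Ctsc, Ctsw, Cst7, Lamp1, Gnptab and M6pr), 0 of 7 passed between NK and CD8 cells, and 0 of 7 had an unadjusted p under 0.05. Between CD8 and CD4 cells 2 of 7 were higher in CD8 cells, namely Ctsw, a cathepsin of cytotoxic cells (393 against 105 CPM, log2 fold change 1.99, edgeR adjusted p = 0.000152), and Cst7, a cystatin that restrains cathepsins (168 against 58.2 CPM, 1.76, adjusted p = 0.00246). Of the release machinery, 1 of 11 was higher in NK than CD8 cells, Sytl2 (61.5 against 31.9 CPM, 0.97, adjusted p = 0.0217), and 1 was lower, Coro1a (837 against 1305 CPM, -0.63, adjusted p = 0.00397). In that list 0 of 11 passed between CD8 and CD4 cells by edgeR, and 0 had an unadjusted p under 0.05. The other granzymes Gzmd and Gzme had means of 8.52 and 17.3 CPM in NK cells and 0 and 0.652 CPM in CD8 cells, and neither passed (adjusted p = 0.102 and 0.0764).

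Of the transcription factors of cytotoxic lymphocytes, 6 of 12 tested were higher in NK than CD8 cells and 1 was lower. Nfil3 (log2 fold change 1.16, edgeR adjusted p = 0.000956), the T-box factor Eomes (2.00, 0.00137), Klf2 (1.31, 0.00525) and the T-box factor Tbx21 (1.07, 0.00842) had the smallest adjusted p. Between CD8 and CD4 cells 1 of 12 passed, Zeb2 (1.80, adjusted p = 0.00581). Effector cytokines, secreted by killer cells, were divided: Xcl1 was higher in NK cells (1.57, adjusted p = 0.00864) and Ccl3 (-2.01, 0.00310) and Ifng (-1.64, 0.0248) lower. Between CD8 and CD4 cells 5 of 5 tested were higher in CD8 cells, led by Ccl4 (4.97, 6.79e-06). Of the death ligands, receptors and their mediators, 0 of 8 passed between NK and CD8 cells and 0 of 8 between CD8 and CD4 cells by edgeR, with 5 and 1 at an unadjusted p under 0.05.

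Over the 14 sums of gates and samples with at least 20 cells, the members' levels on the log2(CPM + 1) scale were set against all genes tested, as a description in which the points share gates and depth. Gzmb was most like Cst7 (Pearson r = 0.958), Prf1 (0.915) and Irak1 (0.905). Gzma was most like Car2 (0.978), Spry2 (0.966) and Klrk1 (0.951), Gzmc was most like Klrb1a (0.940), Enpp4 (0.940) and Eya1 (0.935), and Prf1 was most like Magohb (0.948), Slamf7 (0.940) and Klrd1 (0.938). Gzmk was most like Gtf2i (0.936), Hdgfl3 (0.920) and Prelid2 (0.877), Nkg7 like Nr4a2 (0.967), Bend4 (0.935) and Sh2d2a (0.934), and Fasl like Mctp2 (0.973), Bcl2 (0.941) and Trmt13 (0.935). Between members, Prf1 and Gzmb were the closest pair (0.915), and Gzmk had negative values with Gzma (-0.31), Gzmb (-0.42), Gzmc (-0.55) and Prf1 (-0.31).

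The 5 lymphocyte gates did not hold all transcripts of these genes. Cells outside the gates held 22.6% of the Gzmb UMIs of singlets, 20.2% of Gzmk, 19.05% of Nkg7, 17.5% of Fasl, 13.2% of Prf1, 9.11% of Gzma and 5.82% of Gzmc. NK cells held 78.3% of Gzma, 79.8% of Gzmc, 54.8% of Prf1 and 41.8% of Gzmb UMIs, and CD8 cells 40.1% of Nkg7.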

How the data were processed

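Per the labels' protocols, brains of perfused mice were digested, immune cells were enriched by Percoll, and libraries followed the 10x Genomics single cell 3' v3 and CITE-seq protocols. The authors deposited 1 matrix of raw counts, as UMIs per gene and tag, with no normalization. The submitters' processing notes name Cell Ranger 3.1, Seurat 3.1.1 and mm10. Because 3' UMIs count molecule ends, counts were not divided by length.

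Barcodes under 500 genes or over 15% mitochondrial UMIs were dropped, and hashtags were called with HTODemux (Seurat 5.3.0, quantile 0.99), which gave 9896 singlets, 1712 doublets and 726 negatives. Doublets within 1 hashtag sample stay undetected. T cells had at least 2 UMIs of Cd3d, Cd3e and Cd3g, divided by Cd8a or Cd8b1, Cd4, Foxp3 and Trdc. NK cells had at least 2 UMIs of Ncr1, Klrb1c and Klre1 with no Cd3d, Cd3e, Cd8b1 or Cd4. Lymphocyte gates left out barcodes over 30000 UMIs, over 20 myeloid UMIs per 10000, or over 2 keratin UMIs. The microglia gate used Siglech, which plasmacytoid dendritic cells also carry.

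Counts were summed per gate and hashtag sample and tested with edgeR 4.0.16 (R 4.3.3; quasi-likelihood, TMM, filterByExpr, the hashtag sample as a block, Benjamini-Hochberg over all genes at 0.05). The gates compared share their hashtag sample, which gives the pairing. All lymphocyte gates entered 1 fit. The SE of an edgeR fold change is its absolute value divided by the square root of the F statistic. It is thus not a separate estimate of the spread, and with few UMIs on 1 side it may lie below the counting error. Gamma-delta cells were tested at 10 cells in place of the planned 20, which they did not reach. On data simulated for NK against CD8 cells over 6789 genes, 89% of 200 genes changed 4-fold were recovered with 7 false calls. The simulation used 1 expression profile for all gates, the trended spread and no effects of hashtag samples. It therefore does not show the rate of false calls in the real data. Shares and co-detection used cells thinned to 2000 UMIs and the two-sided exact sign-flip permutation test over samples. Intervals are exact Clopper-Pearson at 95%. Depth per gate and sample in the NK, CD8 and CD4 comparisons ran from 122748 to 1351942 UMIs.

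Alternatives were RLE factors, DESeq2 1.42.0, no filter, no block, each sample left out, 10 cells, stricter gates, gates by antibody tags, a hashtag margin rule, the excluded barcodes kept, other thinning and unscaled tags. Thresholds of the tag gates, and the gamma-delta alternatives beyond the 10-cell minimum, were set after seeing the data. All members were described, at most 4 genes per list and comparison were named by smallest adjusted p, and 3 similar genes per member by correlation. Il17a, Tcrg-C1 and Cd3e in the gamma-delta gate were named after their values were seen. The members and lists were chosen with earlier results of these data known. Treated and untreated brains were not compared.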

Additional observations from a re-analysis of the deposited data

Results flagged for a closer look

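Of 28 sets examined, each of 6 hashtag samples for NK cells or 4 for CD8 cells, 4 held a sample far from the others, and chance alone gives about 1 in 20. Gzmb in NK cells of hashtag sample 3 stood at 6599 CPM, against 1430 to 2793 CPM in the other samples. That sample had 25 NK cells, 22 of them with a Gzmb UMI, and its level without the highest cell was 6089 CPM. Sample 3 had too few CD8 cells to enter the main comparison of NK with CD8 cells.

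Nkg7 in NK cells of hashtag sample 6 was at 1813 CPM, against 2667 to 3158 CPM in the others, and its thinned share there was 88% against 94.5 to 97.6%. The same 25 cells had the lowest NK levels of Gzma, Gzmb, Prf1 and Fasl and the highest of Gzmc. Gzmc in CD8 cells of hashtag sample 8 was seen in 0.667% of thinned cells, which is 1 cell, against 0% in the other samples.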

How the results depend on the processing

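Over 560 values of a member's fold change under an alternative, 507 kept their direction and side of the threshold, 26 lost the call, 11 gained one and 16 reversed. None of the 16 passed the test under the alternative that reversed it. Gzmc in CD8 minus CD4 cells went to 0.69 with excluded barcodes kept, 0.077 with no replicate block, and -2.39 to 3.08 over left-out samples. Nkg7 in NK minus CD8 cells ran from -0.29 to 0.077 over left-out samples. In Treg minus CD4 cells, Gzmc went to 2.43 with tag gates, and Nkg7 to 0.27 at 10 cells, 0.0065 with DESeq2, 0.0062 with RLE factors, 0.57 with excluded barcodes kept and -0.064 to 0.019 over left-out samples. With only gamma-delta cells lacking NK receptor UMIs, 1 sum of 12 cells, the sign turned for Gzmb (-2.37), Gzmc (-3.58) and Nkg7 (-0.98) against CD4 cells and Gzmc (-3.41) against CD8 cells. Gzmc had 0 UMIs in that sum, so its values give no direction. Gamma-delta minus CD4 reached 0.27 for Fasl and 1.68 for Gzma without sample 8. Counts of called genes moved as follows. NK minus CD8 (636) gave 300 with DESeq2, 320 with excluded barcodes kept, and 353 to 712 over left-out samples. CD8 minus CD4 (96) gave 53 with DESeq2, 197 with tag gates, 38 with excluded barcodes kept, 267 with no filter, and 24 to 180 over left-out samples. NK minus CD4 (638) gave 362 with DESeq2 and 290 to 713 over left-out samples. Treg minus CD4 (10) gave 40 at 10 cells, 24 with tag gates, 106 with no filter, and 2 and 3 without sample 8 or 7. Members called there (1, Gzmb; with tag gates Fasl instead) were 0 at 10 cells, with excluded barcodes kept, with no replicate block and without sample 8, and 5 with no filter. Gamma-delta minus CD4 (148) gave 25 with cells lacking NK receptor UMIs and 51 (sample 7), 58 (5), 84 (8) and 224 (6) over left-out samples, with members called falling from 2 to 0 or 1. Gamma-delta minus CD8 (85) gave 45 with those cells and 36 or 40 without sample 8 or 5, with 1 member called without sample 8. Gamma-delta minus NK (111) gave 57 to 169. Pairs with 1 direction fell from 20 to 12 (tag gates) and 11 (3 UMIs) in CD8 cells, and from 11 to 7 (no thinning, 1000 UMIs, tag gates, 3 UMIs) in NK cells, where left-out samples gave 6 to 14. Tags fell from 6 to 2 in CD8 and 5 to 3 in NK cells without scaling. The cause was not tested. Few CD4, Treg and gamma-delta cells limit those comparisons.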

Other observations

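CD8 cells with at least 2 UMIs of Mki67 and Top2a, markers of dividing cells, more often had Gzma than other CD8 cells in all 4 hashtag samples, at a mean of 31.3% against 20.1% of thinned cells (64 and 345 cells), by 0.132 to 32.6 percentage points. The smallest p that 4 samples allow is 0.125, which this difference reached (exact sign-flip permutation test). Gzmb was at 57.6 and 52.2% and Prf1 at 32.9 and 25.9%, each higher in 3 of 4 samples, while Gzmk was at 37.3% in both. Among CD8 cells, sample 8 had the lowest Gzmk (104 CPM) and the highest Prf1 (448 CPM) of the 4 samples.

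Of 32 surface tags compared by Gzmk in CD8 cells, 5 had 1 direction in 4 of 4 samples. If either direction is equally likely, a tag does so by chance with probability 0.125, and the count lies near that share. CD44 (log2 ratio -0.24 ± 0.09) and CD8a (-0.24 ± 0.10) were among the lower ones in cells with Gzmk and Ly6C (0.12 ± 0.07) was the higher one (SD, n = 4, p = 0.125 and adjusted p = 0.800 each, exact permutation test).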
